A study of Mus musculus with 26 samples.

Results

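The genes described here are 39 genes of mitosis and of the G2/M transition, the last steps of the cell cycle, followed across leukaemic mouse cells with and without the demethylase LSD1. They were chosen by symbol, as the rows of the deposited gene count table whose Ensembl identifier maps to a list of 39 names. The rule uses no measured value, but the list was drawn up with earlier results of these data known. All 39 are among the 48795 genes of the table, and all 39 passed the filter on low counts that left 14663 genes for testing. They fall into 10 roles: the CDK1 engine, a transcription factor, mitotic kinases, the chromosomal passenger complex, the spindle checkpoint, the anaphase-promoting complex (APC/C), the kinetochore, spindle motors and bundlers, cytokinesis, and chromosome structure.

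RNA sequencing was done on 24 libraries of mouse myeloid progenitors on a C57BL/6 background, turned leukaemic by a transforming gene. The 12 libraries called H9M carry Hoxa9 and Meis1 together, and the 12 called MN1 carry MN1. In each model the cells were control or LSD1 knockout, and each was grown alone or with all-trans retinoic acid (ATRA) at 1 µM, which gives 8 groups of 3 libraries. H3K4me2, a histone mark of promoters and enhancers, was measured by ChIP-seq in 1 library each of lineage-negative bone marrow cells labelled GFI1-WT and GFI-KD.

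All RNA groups share the strain label CreERT2-;LSD1TM1Schuele and the same medium with interleukin 3, interleukin 6 and stem cell factor. The knockout was induced with 4-hydroxytamoxifen at 0.1 µM for 72 hours. That agent is listed in the characteristics of the knockout libraries only, so loss of LSD1 and exposure to the agent cannot be told apart. The strain label has a minus sign after CreERT2 for knockout libraries too, and the labels do not say how the recombinase was carried. Nothing says that the 3 libraries of a group came from separate cultures, so p-values measure only the spread between these libraries. The labels give the H9M and the MN1 libraries different tags whose meaning is not stated. For levels, the model and whatever the tag stands for cannot be told apart.

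Library totals ran from 22402558 to 32674685 counts. Kdm1a, the gene of LSD1, lay between 138 and 203 CPM (a gene's count over the library total, scaled to a fixed depth) in the control libraries. It lay between 0.937 and 0.998 CPM in the H9M knockout without ATRA and between 1.28 and 2.36 CPM in the MN1 knockout groups. In the H9M knockout with ATRA it lay between 10.3 and 11.5 CPM, above the other knockout groups. Markers of myeloid progenitors, such as Mpo and Kit, were present in every library. All 5 markers of B cells and all 5 of T and NK cells were below 1 CPM in every library.

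Cells enter mitosis when the kinase CDK1 is switched on by its partner cyclins B and A. Polo-like and Aurora kinases then build the spindle, kinetochores tie chromosomes to it, and the spindle checkpoint holds the APC/C back until every chromosome is attached. The genes of these proteins are transcribed late in the cell cycle, largely through promoter elements called the cell cycle genes homology region (CHR), which MuvB complexes bind, and CCAAT boxes, which the factor NF-Y binds. FOXM1 is recruited to many of these promoters. Fast-growing leukaemic progenitors express the whole set, and it is shut down when myeloid cells leave the cycle as they mature.

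Promoter sequences of the genes were examined for these elements. The 150 bases before the annotated start are shown for 4 members picked because they carry the elements there. Of these 4, Top2a fell in the MN1 knockout but not in the H9M knockout. Nusap1, the member that rose where most others fell, is shown beside them. The sequences are from RefSeq, build GRCm38.p6, in the direction of the gene. They cover chr10:69352913-69353062 (minus strand) for Cdk1, chr4:118437344-118437493 (minus strand) for Cdc20, chr2:164769779-164769928 (plus strand) for Ube2c, chr11:99024190-99024339 (minus strand) for Top2a and chr2:119618148-119618297 (plus strand) for Nusap1. Capitals mark CHR letters (TTTGAA or TTCGAA) and CCAAT boxes, on either strand, so that TTCAAA and ATTGG are the same elements read from the other strand.
Cdk1: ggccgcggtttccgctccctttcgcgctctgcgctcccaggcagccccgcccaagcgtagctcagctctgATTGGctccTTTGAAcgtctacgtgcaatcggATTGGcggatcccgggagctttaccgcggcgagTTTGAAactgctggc
Cdc20: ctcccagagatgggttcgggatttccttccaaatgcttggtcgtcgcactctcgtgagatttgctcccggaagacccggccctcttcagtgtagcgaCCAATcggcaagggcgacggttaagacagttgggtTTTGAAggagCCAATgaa
Ube2c: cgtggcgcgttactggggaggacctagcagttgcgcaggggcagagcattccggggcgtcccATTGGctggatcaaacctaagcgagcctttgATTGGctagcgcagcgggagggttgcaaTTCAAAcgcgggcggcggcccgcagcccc
Top2a: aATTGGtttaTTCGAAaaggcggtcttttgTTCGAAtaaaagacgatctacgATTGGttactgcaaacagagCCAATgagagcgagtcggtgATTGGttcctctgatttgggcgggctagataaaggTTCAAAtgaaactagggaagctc
Nusap1: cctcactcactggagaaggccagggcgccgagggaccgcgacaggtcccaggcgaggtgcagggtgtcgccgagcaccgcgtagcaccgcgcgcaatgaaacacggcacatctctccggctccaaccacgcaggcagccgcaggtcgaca

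A CHR match, a CCAAT match or both were common in these promoters. RefSeq windows of 300 bases, from 250 before the start to 50 after it, were at hand for 31 of the 39 members. For a gene with several annotated starts, only the start with the most H3K4me2 reads in the ChIP libraries together was searched. A CHR match (TTTGAA or TTCGAA, both strands) was found in 25 of the 31 (80.6%) and in 19.2% of the windows of all 27025 genes. CCAAT was found in 77.4% of the members and in 37.6% of all genes, and a window with both elements in 71.0% and 7.53%. E2F-like letters were searched on both strands as TTCGCGC, as TTCCCGC and as a further form, TTGGCGC. The last of these can overlap a CCAAT box read from the other strand. They were in 16.1% of the members and 8.35% of all genes. CHR matches sat close to the start, with 15 of 34 in the first 50 transcribed bases, where none of the 51 CCAAT matches lay. In the 100 bases before the start alone, 25.8% of the members and 6.19% of all genes held a CHR match. Birc5, Mad2l1, Nuf2 and Nusap1 held neither CHR nor CCAAT in the 300 bases, and the first 3 of these fell with the knockout in both models while Nusap1 rose. A match is a run of letters and not a measured binding site. Whether the matches go with the changes in RNA was not tested.

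**Figure D1:**
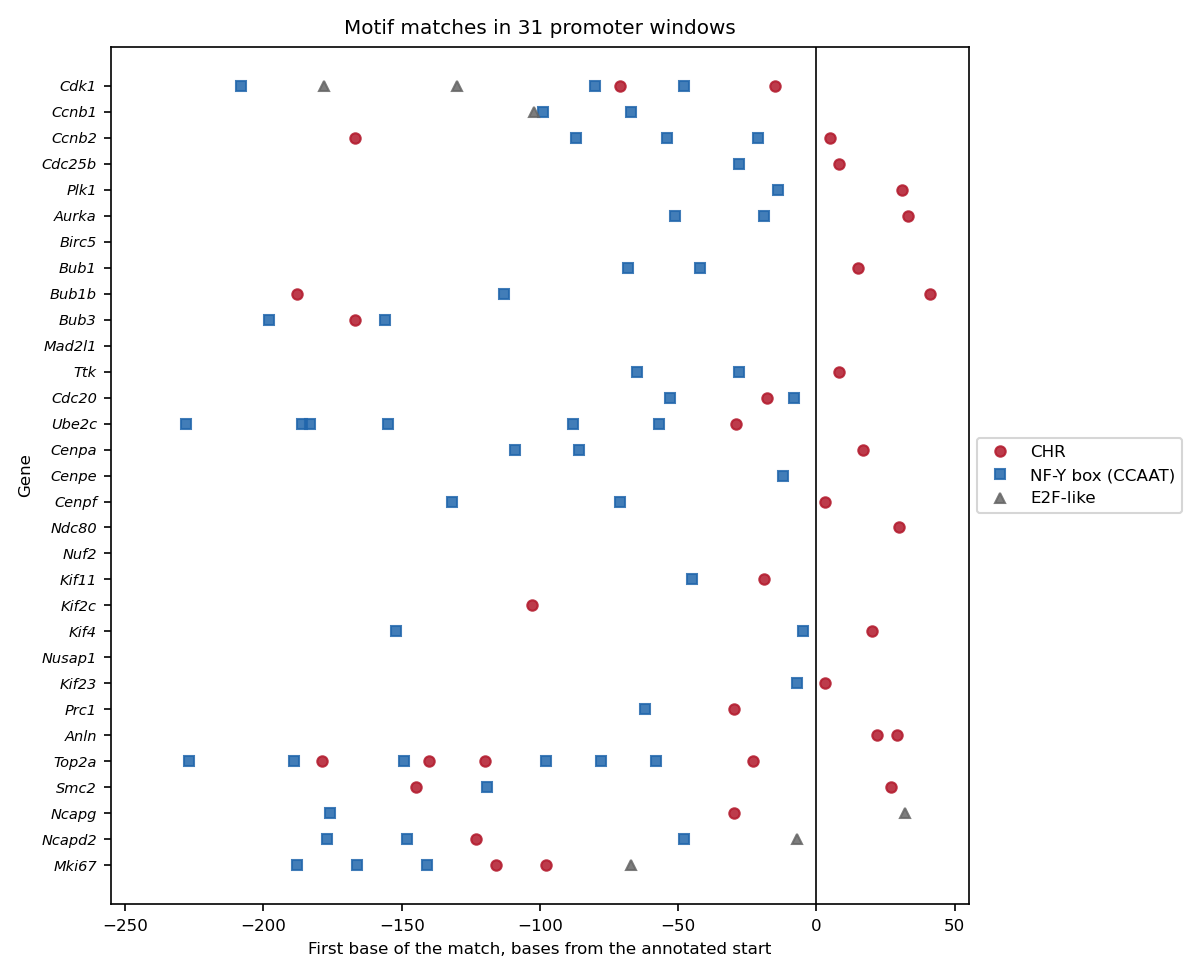
Places of motif matches in the promoter windows of 31 members. The horizontal axis gives the first base of each match in bases from the annotated start (vertical line), each row is a gene, and the marks are CHR, CCAAT (NF-Y box) and E2F-like letters. CCAAT matches all lie before the start, and 15 of the 34 CHR matches lie after it.

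Most of the 39 genes were lower in the LSD1 knockout than in the control in both models, by small amounts and more widely in MN1 cells. In H9M cells without ATRA, edgeR's quasi-likelihood test called 25 members lower and 1 higher at an adjusted p under 0.05, with a median log2 fold change of -0.16. Among all tested genes 25.4% were called lower and 26.1% higher, with a median of 0.00. In MN1 cells 36 members were lower and 1 higher, with a median of -0.40, where 26.3% of all tested genes were lower and 28.7% higher. The changes ran from -0.42 to 0.18 in H9M and from -0.63 to 0.17 in MN1, and none reached 2-fold.

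**Figure D2:**
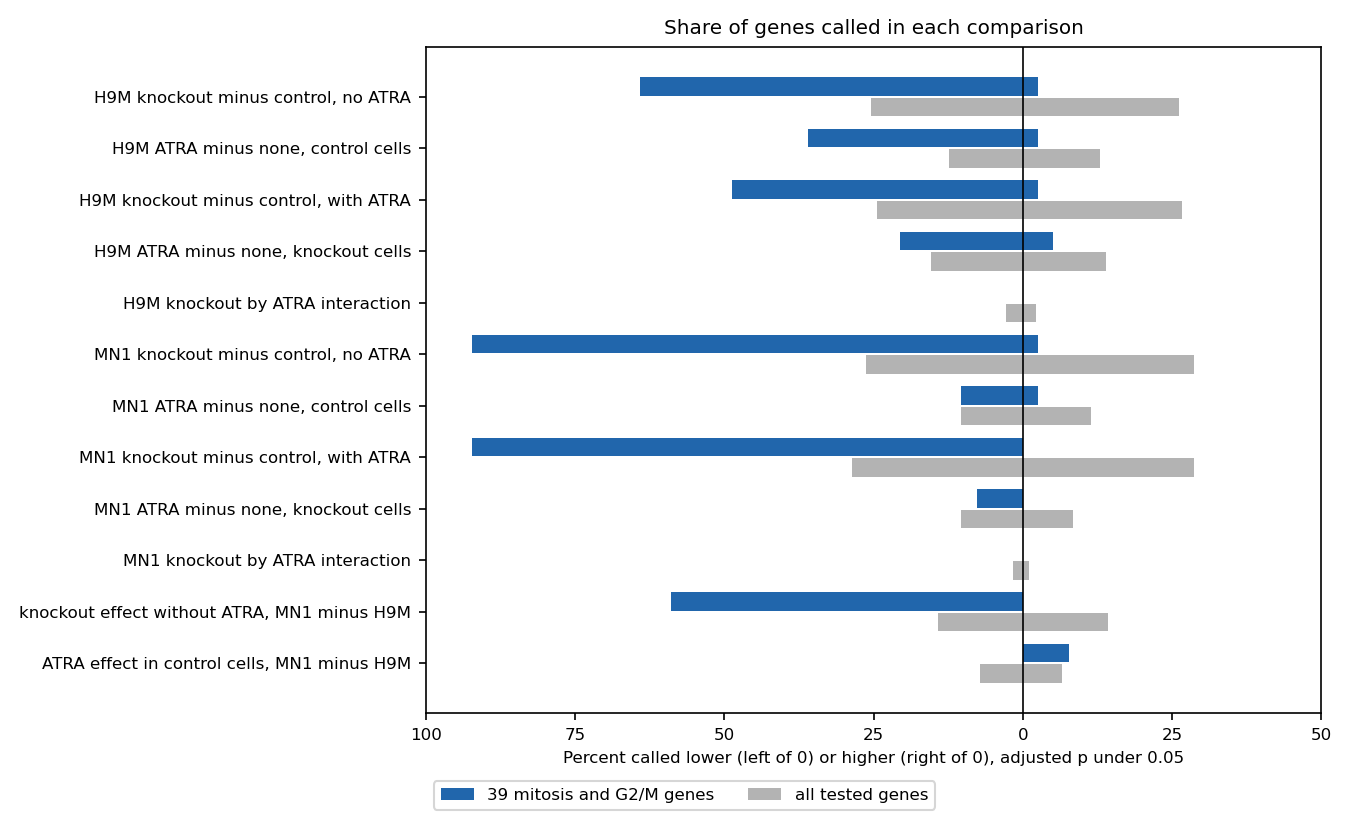
Share of genes called in each comparison at an adjusted p under 0.05. Bars left of 0 give the percent called lower and bars right of 0 the percent called higher, in blue for the 39 mitosis and G2/M genes and in grey for all tested genes. In the MN1 knockout without ATRA 92.3% of the members were lower, against 26.3% of all tested genes.

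For most called members the libraries of the compared groups did not overlap, as for called genes in general. Of the 26 members called in the H9M knockout, 24 had no overlap between the 3 knockout and the 3 control libraries, and Plk1 and Nusap1 overlapped, where 96% of all called genes had no overlap. Of the 37 called in the MN1 knockout, 36 had no overlap, and Mki67 overlapped, where 96.6% of all called genes had none. The summed level of the 39 genes was 5318 to 5555 CPM in the H9M control libraries and 4743 to 5158 CPM in the H9M knockout. In MN1 it was 6107 to 6387 CPM in the control and 4770 to 5014 CPM in the knockout. In bulk libraries, fewer cells in mitosis and less of each transcript per cell cannot be told apart.

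**Figure D3:**
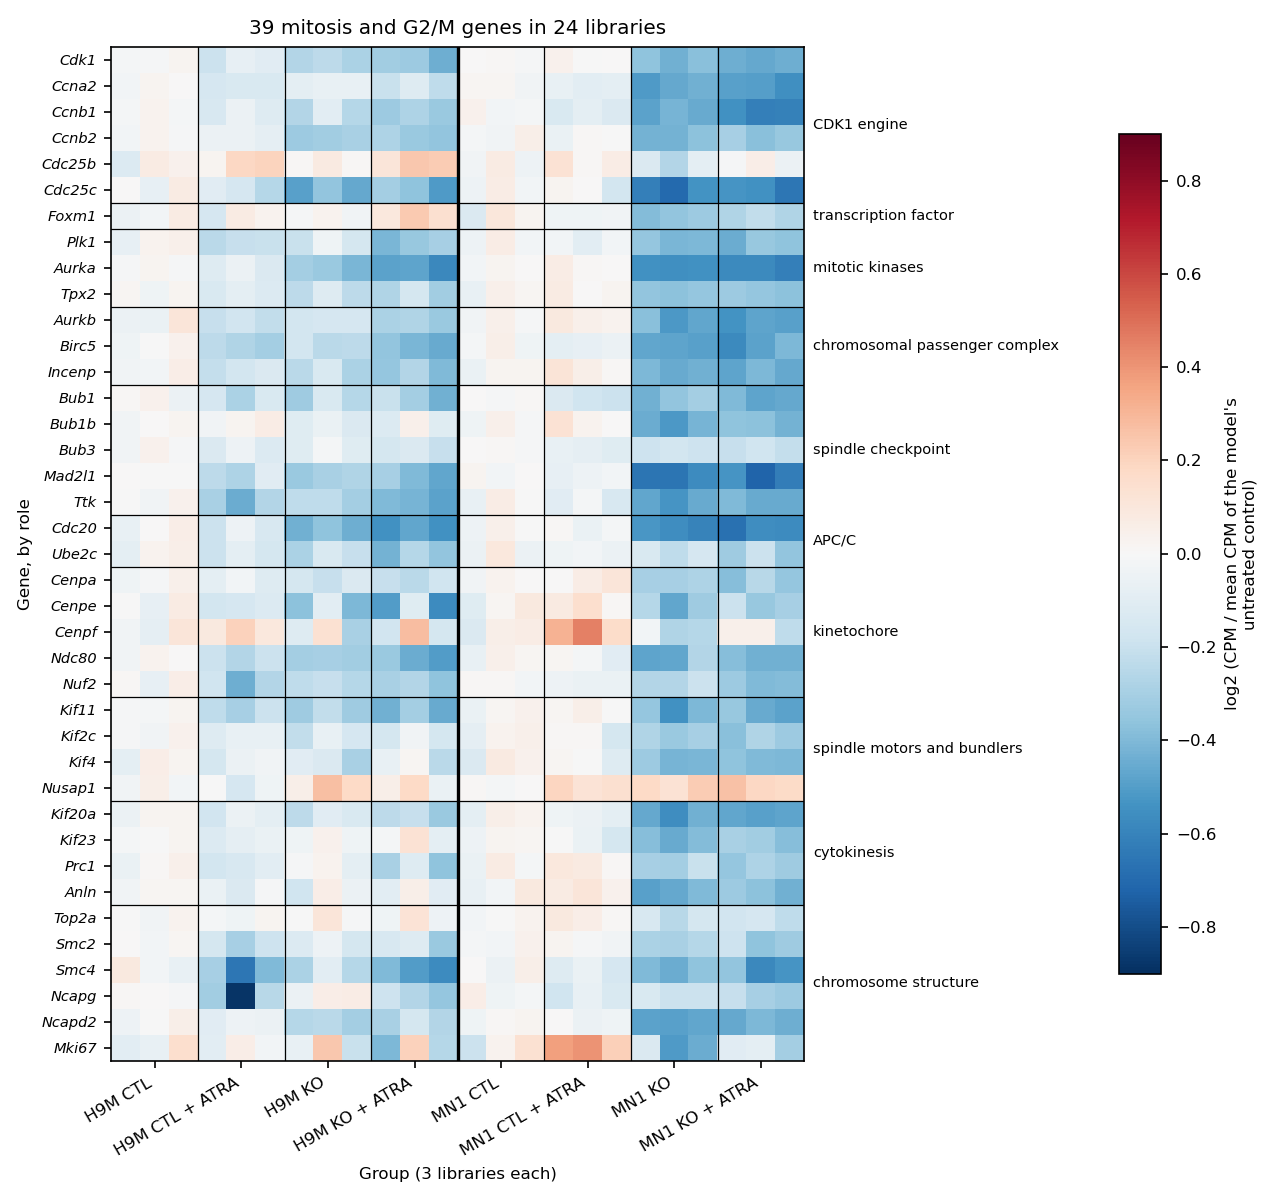
Level of each of the 39 genes in each of the 24 libraries, as the log2 ratio of its CPM to the mean CPM of the control libraries of the same model without ATRA (colour scale). Rows are genes grouped by role and columns are libraries, 3 for each group. The MN1 knockout columns are blue (lower) in most rows and red (higher) for Nusap1, and the H9M knockout columns are paler.

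The genes of the CDK1 engine fell in both models. Cdk1, the kinase itself, stood at 172, 173 and 177 CPM in the H9M control and at 145, 148 and 143 CPM in the knockout. In MN1 it stood at 215, 216 and 213 CPM in the control and at 167, 159 and 165 CPM in the knockout. The libraries did not overlap in either model, and Cdk1 was at 84.2% of control in H9M (log2 fold change -0.25 ± 0.04 SE, adjusted p = 6.35e-07) and at 76% in MN1 (-0.40 ± 0.03, adjusted p = 4.92e-11).

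Cyclin B1, the partner that carries CDK1 into mitosis, followed the same order. Ccnb1 had 151, 156 and 151 CPM in the H9M control and 127, 143 and 128 CPM in the knockout (-0.19 ± 0.04, adjusted p = 0.000173). In MN1 it had 214, 205 and 206 CPM in the control and 149, 156 and 152 CPM in the knockout (-0.46 ± 0.04, adjusted p = 2.51e-11). Knockout replicate 2 was the closest to the controls in H9M. The second B-type cyclin gene, Ccnb2, fell to 81.4% of control in H9M (-0.30 ± 0.03) and to 75.1% in MN1 (-0.41 ± 0.03).

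Cyclin A2, which drives S phase and the entry into mitosis, differed between the models. Ccna2 had 129, 133 and 131 CPM in the H9M control and 123, 125 and 125 CPM in the knockout, a change of -0.07 ± 0.03 that was not called (adjusted p = 0.0932). In MN1 it fell from 204, 204 and 198 CPM to 142, 147 and 150 CPM (-0.47 ± 0.03, adjusted p = 1.91e-13). The phosphatases that activate CDK1 split as well. Cdc25c fell to 74.9% of control in H9M (-0.42 ± 0.07, adjusted p = 5.34e-06), the largest fall of the 39 genes there, and to 64.9% in MN1 (-0.62 ± 0.07, adjusted p = 3.83e-09). Cdc25b had a change of 0.05 ± 0.06 in H9M, not called, and fell in MN1 (-0.16 ± 0.06, adjusted p = 0.0222). That MN1 call ended in DESeq2 and without control replicate 2 or knockout replicate 2.

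Foxm1, the transcription factor of the set, also parted by model. Its H9M control libraries had 86.1, 87.7 and 93.8 CPM and its knockout libraries 88.6, 91.1 and 87.1 CPM, which overlap (0.01 ± 0.05, adjusted p = 0.905). In MN1 it went from 86.8, 102 and 96.8 CPM to 72.7, 74.4 and 75.8 CPM, with no overlap (-0.36 ± 0.05, adjusted p = 6.46e-07).

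Of the mitotic kinases and their activator, all 3 fell in both models. Aurka, the Aurora kinase of centrosomes and spindle poles, had 118, 121 and 118 CPM in the H9M control and 96.3, 94.6 and 89.5 CPM in the knockout (-0.33 ± 0.04, adjusted p = 6.83e-09). Aurka in MN1 had 103, 107 and 105 CPM and then 71.9, 71.6 and 72.1 CPM (-0.55 ± 0.04, adjusted p = 1.83e-13). Aurka had the smallest adjusted p of the 39 genes in the MN1 knockout.

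Plk1, the Polo-like kinase that acts from mitotic entry to cytokinesis, moved less in H9M. It had 95.7, 103 and 104 CPM in the H9M control and 87.7, 98.3 and 90.5 CPM in the knockout, which overlap (-0.11 ± 0.04, adjusted p = 0.0346). That call ended with RLE normalization, with DESeq2 and without any of control replicates 2 and 3 and knockout replicates 1 and 3. In MN1 Plk1 fell from 121, 131 and 123 CPM to 98.3, 94.2 and 94.6 CPM (-0.39 ± 0.04, adjusted p = 9.08e-09). Tpx2, the spindle protein that switches Aurora A on, fell to 88.1% of control in H9M and to 77.8% in MN1.

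The chromosomal passenger complex, which corrects faulty attachments, fell as a whole, 3 of 3 genes in each model. Aurkb, its kinase, had 136, 135 and 152 CPM in the H9M control and 126, 127 and 127 CPM in the knockout (-0.14 ± 0.04, adjusted p = 0.00459). Control replicate 3 stood above the other control libraries, and without it the H9M call ended (adjusted p = 0.0828). In MN1 Aurkb fell from 125, 132 and 127 CPM to 98.6, 89.4 and 92.4 CPM (-0.46 ± 0.04, adjusted p = 8.54e-11). Birc5, the gene of survivin, fell to 87.1% of control in H9M (adjusted p = 0.000136) and to 71.5% in MN1 (-0.48 ± 0.04, adjusted p = 1.67e-11). Incenp, the scaffold of the complex, fell to 86.8% and to 74.1%.

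Among the 5 spindle checkpoint genes, 3 fell in H9M and 5 in MN1. Mad2l1, the gene of the MAD2 protein that binds CDC20, had 82.7, 82.1 and 82.1 CPM in the H9M control and 65.2, 67.3 and 68.3 CPM in the knockout (-0.28 ± 0.05, adjusted p = 6.82e-06). Mad2l1 in MN1 had 158, 153 and 156 CPM and then 98.8, 98.9 and 105 CPM (-0.63 ± 0.04, adjusted p = 2.73e-13). This was the largest change of the 39 genes in the MN1 knockout, 1.55-fold lower. Ttk, the kinase that starts the checkpoint, fell to 84.7% of control in H9M (adjusted p = 0.000201) and to 71.2% in MN1 (-0.49 ± 0.05). Bub1, a checkpoint kinase, fell to 85.8% and to 77.6%. Bub1b, the gene of BUBR1, was at 94.2% in H9M (-0.09 ± 0.04, adjusted p = 0.0972, not called) and fell to 72.7% in MN1 (-0.46 ± 0.04, adjusted p = 1.06e-10). Bub3, which carries both kinases to kinetochores, was at 95.4% in H9M (adjusted p = 0.0954, not called) and fell to 88.2% in MN1.

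Both APC/C genes fell in both models. Cdc20, the activator that the checkpoint holds back, had 152, 159 and 166 CPM in the H9M control and 118, 124 and 117 CPM in the knockout (-0.40 ± 0.04, adjusted p = 5.28e-09). Cdc20 in MN1 had 194, 207 and 200 CPM and then 139, 136 and 132 CPM (-0.57 ± 0.04, adjusted p = 1.53e-12). Cdc20 had the smallest adjusted p of the 39 genes in the H9M knockout. Ube2c, the ubiquitin-conjugating enzyme of the APC/C, had nearly the same change in both models, to 87.5% of control in H9M (-0.19 ± 0.05, adjusted p = 0.00155) and to 88.6% in MN1 (-0.18 ± 0.05, adjusted p = 0.00322).

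Of the 5 kinetochore genes, 4 fell in each model. Ndc80, the microtubule-binding subunit, had 42.1, 44.0 and 43.1 CPM in the H9M control and 34.8, 35 and 34.7 CPM in the knockout (-0.29 ± 0.05, adjusted p = 1.75e-05). In MN1 it went from 40.7, 43.9 and 43.2 CPM to 30.6, 30.8 and 35.4 CPM (-0.40 ± 0.05, adjusted p = 7.5e-08). Its partner Nuf2 fell to 86.1% in H9M and to 84.4% in MN1. Cenpa, the centromere histone, fell to 90.1% of control in H9M and to 81.3% in MN1 (-0.30 ± 0.04, adjusted p = 8.55e-08). Cenpe, a kinetochore motor, fell in H9M (-0.27 ± 0.08, adjusted p = 0.00743), a call that ended in DESeq2 and without knockout replicate 3, and in MN1 (-0.35 ± 0.08, adjusted p = 0.000755). Cenpf, a large kinetochore protein, was not called in H9M (-0.07 ± 0.10, adjusted p = 0.635) or in MN1 (-0.18 ± 0.10, adjusted p = 0.123).

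Spindle motors fell, while a spindle bundler rose. Kif11, the motor that pushes spindle poles apart, had 191, 190 and 195 CPM in the H9M control and 154, 165 and 154 CPM in the knockout (-0.27 ± 0.05, adjusted p = 9.41e-06). Kif11 in MN1 had 197, 208 and 211 CPM and then 161, 141 and 155 CPM (-0.43 ± 0.05, adjusted p = 1.91e-09). Kif2c, a microtubule depolymerase, fell in H9M (-0.13 ± 0.05, adjusted p = 0.0226) and in MN1 (-0.31 ± 0.05). Kif4, a chromosome-bound motor, fell in H9M (-0.16 ± 0.06, adjusted p = 0.0356) and in MN1 (-0.39 ± 0.06). The H9M calls of Kif2c and of Kif4 each ended with RLE normalization, in DESeq2 and without any of 3 libraries, among them control replicate 3 and knockout replicate 3.

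Nusap1, which bundles spindle microtubules near chromosomes, was the member that rose in both models. It had 71.5, 75.7 and 71.7 CPM in the H9M control and 75.5, 88.1 and 82.7 CPM in the knockout, which overlap (0.18 ± 0.05, adjusted p = 0.00393). Knockout replicate 2 was the highest, and without it the H9M call ended (adjusted p = 0.0579). In MN1 it had 79.7, 78.1 and 79.3 CPM and then 89.3, 86.6 and 92.4 CPM, which do not overlap (0.17 ± 0.05, adjusted p = 0.00503). Nusap1 overlaps Oip5 in the RefSeq annotation. The labels do not say whether counting used strand, so reads of the 2 genes may not be separate.

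Of the 4 cytokinesis genes, 1 fell in H9M and 4 in MN1. The H9M member was Kif20a, a motor of the cleavage furrow (-0.14 ± 0.05, adjusted p = 0.0105), and that call ended without knockout replicate 1. Kif20a had 115, 127 and 125 CPM in the MN1 control and 89.1, 82.9 and 90.6 CPM in the knockout (-0.49 ± 0.04, adjusted p = 9.49e-11). Kif23, the motor of the central spindle, had 76.0, 76.7 and 78.5 CPM in the H9M control and 74.9, 79.3 and 74.9 CPM in the knockout (0.00 ± 0.05, adjusted p = 0.995).
In MN1 Kif23 went from 68.0, 71.4 and 70.8 CPM to 53.7, 51.2 and 53.4 CPM (-0.41 ± 0.05, adjusted p = 1.62e-08). Anln, the furrow protein anillin, had a change of -0.04 ± 0.05 in H9M (adjusted p = 0.553) and fell to 73.2% in MN1 (-0.45 ± 0.05, adjusted p = 8.5e-09). Prc1, which bundles the midzone, had a change of -0.01 ± 0.05 in H9M (adjusted p = 0.929) and fell to 82.8% in MN1 (-0.27 ± 0.05, adjusted p = 4.75e-05).

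Of the 6 genes of chromosome structure, 2 fell in H9M and 5 in MN1. Ncapd2, a subunit of condensin, which compacts mitotic chromosomes, had 406, 418 and 436 CPM in the H9M control and 351, 355 and 340 CPM in the knockout (-0.25 ± 0.04, adjusted p = 4.79e-07). In MN1 it had 501, 518 and 523 CPM and then 369, 366 and 371 CPM (-0.49 ± 0.04, adjusted p = 7.39e-13). The condensin core gene Smc4 fell to 87.5% in H9M (adjusted p = 0.0119, a call lost without control replicate 1 or knockout replicates 1 or 3) and to 75.5% in MN1 (-0.41 ± 0.06). Its partner Smc2 was at 93.8% in H9M (adjusted p = 0.106, not called) and fell to 82% in MN1 (adjusted p = 5.5e-06). Ncapg, another condensin subunit, was not called in H9M (0.04 ± 0.08) or in MN1 (-0.18 ± 0.08, adjusted p = 0.0536).

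Top2a, the topoisomerase that untangles sister DNA, stayed near its control level in H9M. It had 600, 589 and 616 CPM in the control and 599, 648 and 597 CPM in the knockout, which overlap (0.04 ± 0.04, adjusted p = 0.378). In MN1 it fell from 754, 764 and 783 CPM to 693, 646 and 688 CPM (-0.19 ± 0.04, adjusted p = 0.000207). Mki67, the gene of the proliferation marker Ki-67, varied most between replicates. It had 378, 385 and 448 CPM in the H9M control and 385, 478 and 352 CPM in the knockout (0.02 ± 0.12, adjusted p = 0.917). In MN1 it had 395, 462 and 496 CPM and then 412, 316 and 331 CPM, which overlap (-0.36 ± 0.12, adjusted p = 0.0101). That MN1 call ended in DESeq2 and without control replicate 3 or knockout replicate 2.

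**Figure D4:**
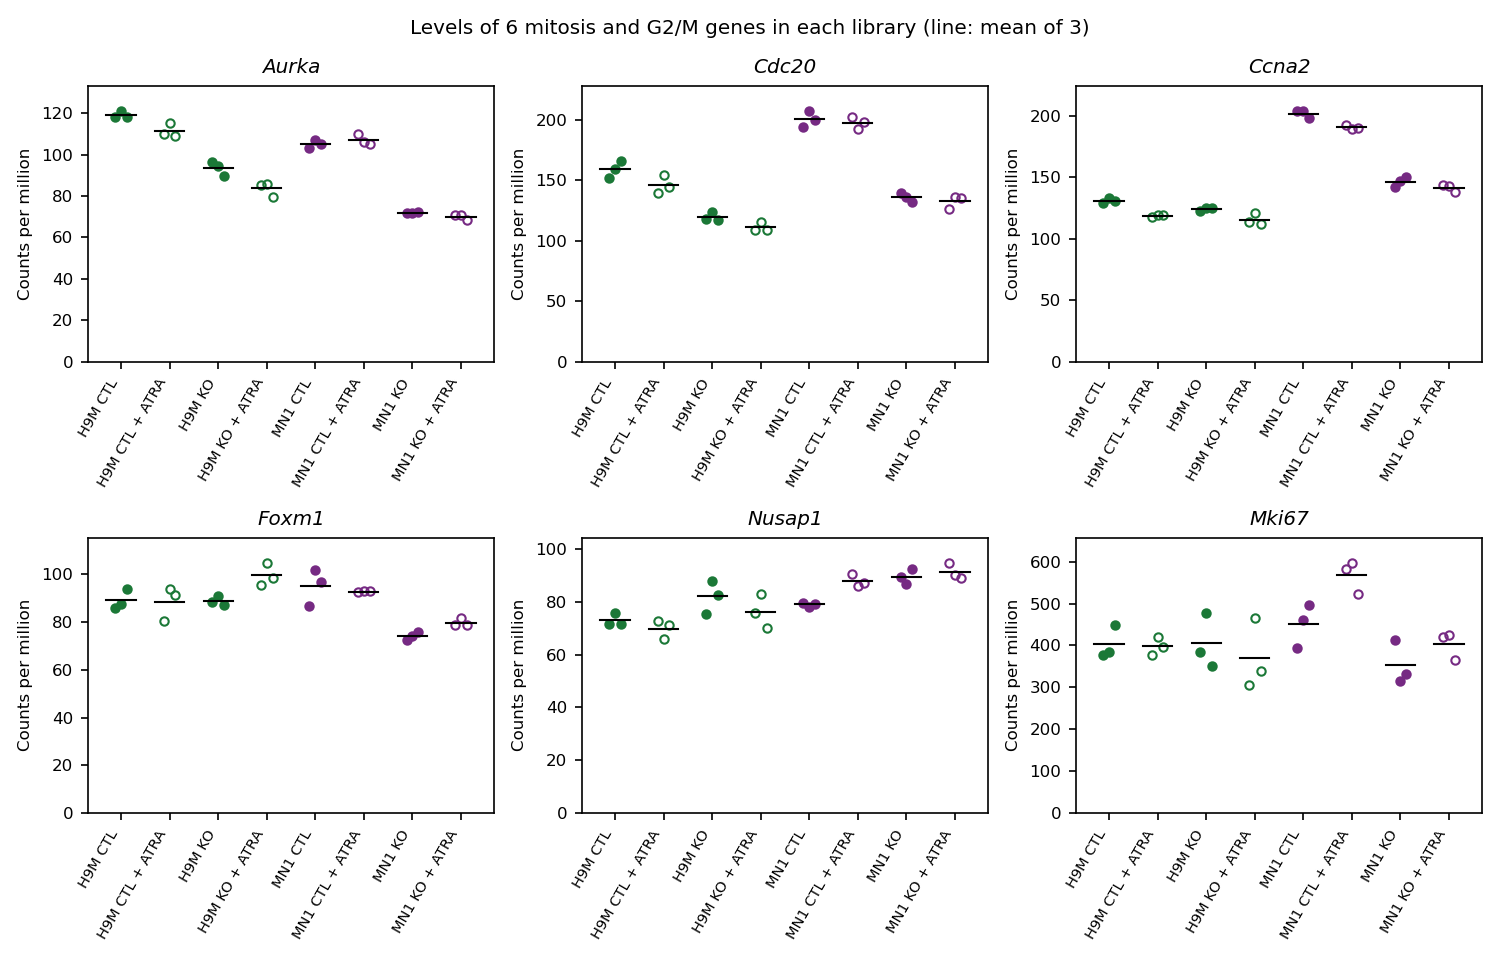
CPM of 6 of the genes in each library. Each point is a library, filled without ATRA and open with ATRA, green for H9M and purple for MN1, and the line is the mean of 3. Aurka and Cdc20 are lower in the knockout groups of both models, Ccna2 and Foxm1 separate by LSD1 in MN1, Nusap1 is higher in the MN1 knockout without ATRA, and the Mki67 replicates are spread widely.

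The knockout effect was larger in MN1 than in H9M for most of these genes. The difference of the log2 fold changes, MN1 minus H9M, was called for 23 members, all with the lower value in MN1, and for none with the higher value. Among all tested genes 14.2% were called in each direction. The unadjusted p was under 0.05 for 0 members in the upward direction, and DESeq2 called 0 there too and 22 downwards. The median difference over the 39 genes was -0.22, against 0.00 over all tested genes. Among the called members, the largest differences were those of Kif23 (-0.42 ± 0.07, adjusted p = 1.41e-05), Anln (-0.41 ± 0.07, adjusted p = 4.88e-05), Ccna2 (-0.40 ± 0.05, adjusted p = 4.04e-08), Foxm1 (-0.37 ± 0.07, adjusted p = 0.000202) and Bub1b (-0.37 ± 0.06, adjusted p = 1.22e-05).

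By role, the difference was called for 4 of 4 cytokinesis genes, 3 of 3 passenger complex genes and 3 of 3 mitotic kinase genes, but for 1 of 5 kinetochore genes and 1 of 2 APC/C genes. Of the panel read in every library, it was called for Ccnb1 (-0.27 ± 0.06), Plk1 (-0.27 ± 0.06), Aurkb (-0.32 ± 0.06), Top2a (-0.23 ± 0.06) and Cdk1 (-0.15 ± 0.05). It was not called for Mki67 (-0.38 ± 0.16, adjusted p = 0.0895). Ube2c (0.02 ± 0.07) and Nusap1 (-0.01 ± 0.07) had the smallest differences. The calls of Cdc20, Cdk1, Cenpa, Kif4, Smc2 and Tpx2 ended under at least 1 other setting or without at least 1 library. For Cdc20, Cenpa and Kif4 this held for 8 different libraries each. Without H9M knockout replicate 2, 18 members were called.

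**Figure D5:**
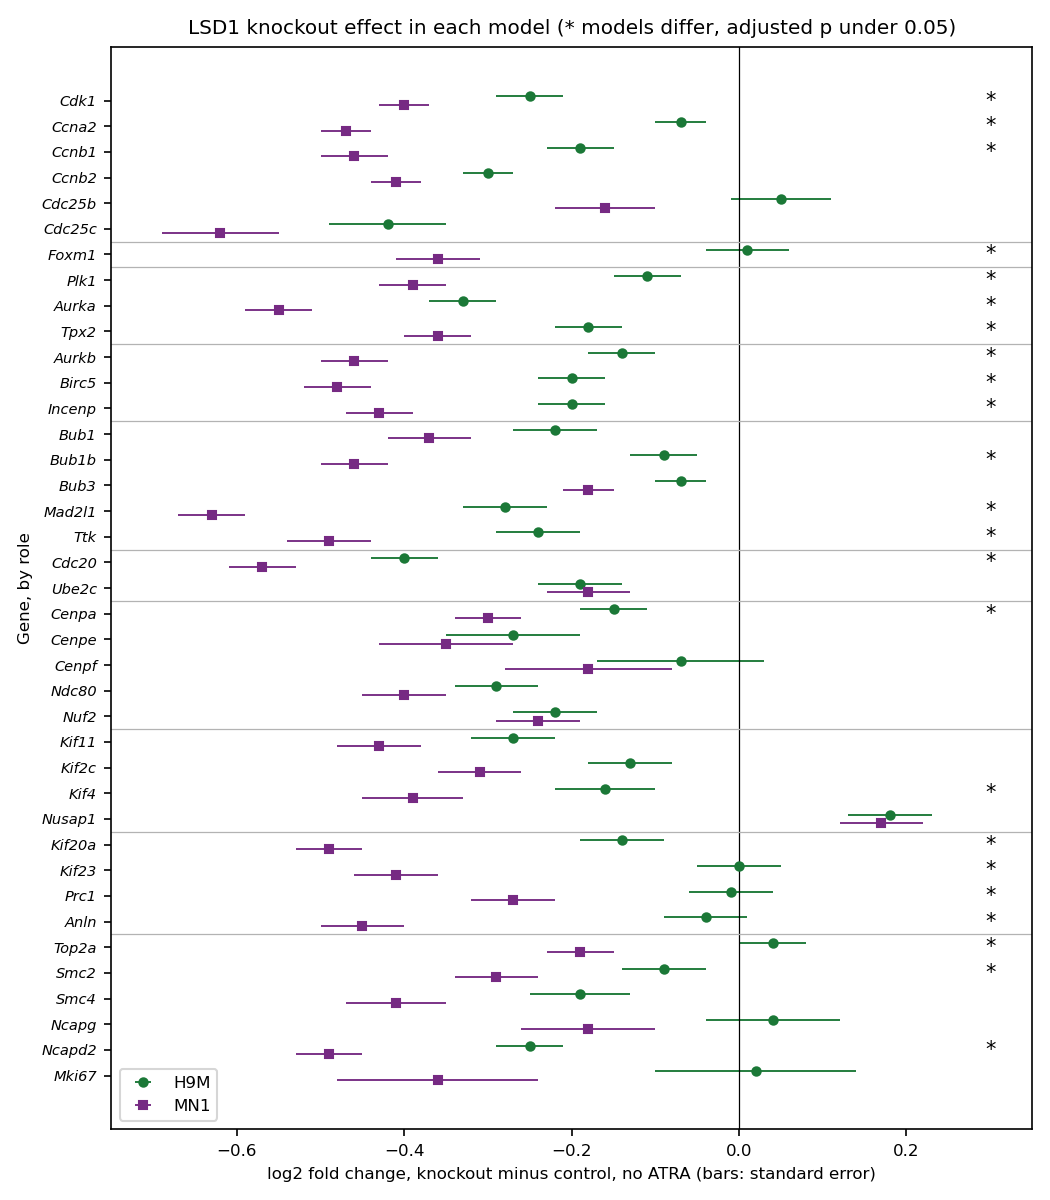
Log2 fold change of each gene with the LSD1 knockout, without ATRA, in H9M (green circles) and in MN1 (purple squares). Bars are standard errors of the fit over all groups, and a star marks genes whose difference between the models had an adjusted p under 0.05. MN1 values lie left of H9M values for 38 of the 39 genes, and Nusap1 lies right of 0 in both.

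All 25 members that fell in the H9M knockout also fell in the MN1 knockout, which is 69.4% of the 36 that fell there. Over all tested genes, 63.2% of those lower in the H9M knockout were lower in the MN1 knockout. These comparisons share no library, and since 36 of the 39 members fell in MN1, most of any 25 members would be shared. In the MN1 knockout with ATRA, 36 members were lower and none higher, with a median of -0.40, where 28.6% of all tested genes were lower and 28.6% higher. No member was higher there at an unadjusted p under 0.05 or in DESeq2. In the H9M knockout with ATRA, 19 members were lower and 1 higher, with a median of -0.12, where 24.4% of all tested genes were lower and 26.7% higher. In this H9M group Kdm1a was at 7.52% of control, against 0.703% without ATRA, and the part of the remaining Kdm1a in the H9M values was not tested. The counts with and without ATRA do not show a difference between them, since the interaction of knockout and ATRA was called for 0 of 39 members in each model.

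All 19 members that fell in H9M with ATRA were among the 25 that fell without it, where 79.1% of all genes lower with ATRA were lower without it. The 19 are 76% of those 25, and 76% of all genes lower without ATRA were lower with it. In MN1, 35 genes were common to both lists of 36 (97.2%), where 79.4% of all genes lower with ATRA were lower without it. In all, 19 members (48.7%) fell in each of the 4 knockout comparisons, as did 12.5% of all tested genes. They were Cdk1, Ccnb1, Ccnb2, Cdc25c, Plk1, Aurka, Tpx2, Birc5, Incenp, Bub1, Mad2l1, Cdc20, Ube2c, Cenpa, Cenpe, Ndc80, Kif11, Kif20a and Ncapd2. Among these, the H9M calls with ATRA of Bub1, Cdc25c, Cenpe, Kif20a, Plk1 and Tpx2 ended without at least 1 library. That of Bub1 (adjusted p = 0.0477 in edgeR) also ended under each of the 6 other settings, and without any of 4 libraries.

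Aurka and Cdc20 led the knockout effect with ATRA. Aurka had 110, 115 and 109 CPM in the H9M control with ATRA and 85.4, 85.7 and 79.7 CPM in the knockout with ATRA (-0.41 ± 0.04, adjusted p = 1.14e-10). In MN1 with ATRA it had 110, 106 and 105 CPM and then 70.7, 70.7 and 68.5 CPM (-0.64 ± 0.04, adjusted p = 5.26e-15). Cdc20 was at 76% of control in H9M (-0.40 ± 0.04) and at 66% in MN1 (-0.60 ± 0.04). Ccnb2 (-0.26 ± 0.03), Cenpe (-0.23 ± 0.08) and Cdk1 (-0.23 ± 0.04) came next in H9M. Mad2l1 (-0.60 ± 0.04), Aurkb (-0.58 ± 0.04) and Cdc25c (-0.56 ± 0.07) came next in MN1.

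Foxm1 was the member that rose in the H9M knockout with ATRA. It had 80.3, 94.1 and 91.4 CPM in the control with ATRA and 95.4, 105 and 98.6 CPM in the knockout with ATRA (0.17 ± 0.05, adjusted p = 0.00581). The call ended without control replicate 1 or without knockout replicate 2. In MN1 with ATRA Foxm1 fell (-0.24 ± 0.05, adjusted p = 0.000193). Of the rest of the panel, Ccnb1 and Cdk1 fell in both models, by 0.21 and 0.23 in H9M and by 0.49 and 0.48 in MN1 on the log2 scale. Plk1 fell by 0.13 in H9M, a call lost without control replicates 2 or 3 or knockout replicate 1, and by 0.36 in MN1. Aurkb (-0.09 ± 0.04, adjusted p = 0.062), Top2a (0.03 ± 0.04, adjusted p = 0.626) and Mki67 (-0.11 ± 0.12, adjusted p = 0.473) were not called in H9M. Top2a (-0.26 ± 0.04) and Mki67 (-0.52 ± 0.12, adjusted p = 0.000334) fell in MN1. Of the H9M calls with ATRA, those of Bub1, Cdc25c, Cenpe, Kif20a and Tpx2 also ended under another setting or without a library.

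ATRA alone had a smaller effect, clearest in H9M control cells, where 14 members fell and 1 rose. Of all tested genes 12.3% fell and 12.9% rose there, and the median over the members was -0.09. Ncapg and Smc4, 2 of the 4 condensin genes, had the largest falls. Ncapg went from 53.2, 52.9 and 52.4 CPM to 42.6, 28.7 and 44.5 CPM (-0.41 ± 0.08, adjusted p = 0.000297), and Smc4 went from 264, 244 and 237 CPM to 202, 158 and 189 CPM (-0.40 ± 0.06, adjusted p = 1.6e-05). Replicate 2 with ATRA was the lowest library for both genes.

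Ttk (-0.29 ± 0.05, adjusted p = 5.62e-05), Nuf2 (-0.25 ± 0.05) and Birc5 (-0.23 ± 0.04) were the next largest falls. Ccna2, Plk1, Aurkb, Incenp, Bub1, Mad2l1, Ndc80, Kif11 and Smc2 fell by 0.11 to 0.20 on the log2 scale. Cdc25b rose (0.17 ± 0.06, adjusted p = 0.0294), with groups that overlap. Of these 15 calls, those of Aurkb, Bub1, Ccna2, Cdc25b, Incenp, Mad2l1 and Smc2 ended without at least 1 library.

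In the H9M knockout, ATRA lowered 8 members and raised 2, where 15.4% of all tested genes fell and 13.9% rose. Plk1 (-0.19 ± 0.05, adjusted p = 0.00146) and Birc5 (-0.17 ± 0.04, adjusted p = 0.00204) fell, and so did Smc4 (-0.25 ± 0.06), Prc1 (-0.21 ± 0.05), Ncapg, Ttk, Aurka and Aurkb. Foxm1 (0.19 ± 0.05, adjusted p = 0.0055) and Cdc25b (0.18 ± 0.06, adjusted p = 0.016) rose. Without knockout replicate 2 with ATRA, 15 members fell and none rose, and without replicate 3 of that group 4 fell. The call of Foxm1 ended without replicate 2 of that group. Those of Aurka, Aurkb, Cdc25b, Ncapg and Ttk ended without at least 1 library.

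In MN1 cells ATRA changed few members. In the control 4 fell and 1 rose, where 10.4% of all tested genes fell and 11.4% rose. The members' share was near that of all genes for falls (10.3%) and below it for rises (2.56%). Bub1 (-0.19 ± 0.05, adjusted p = 0.00448), Ccnb1 (-0.14 ± 0.04), Ccna2 (-0.11 ± 0.03) and Bub3 (-0.10 ± 0.03) fell, and Cenpf rose (0.30 ± 0.10, adjusted p = 0.0292). With library totals in place of TMM factors, 3 rose and 2 fell. The calls of Ccnb1, Ccna2, Bub3 and Cenpf each ended without at least 1 library, and without control replicate 1 without ATRA 1 member fell. In the MN1 knockout Ccnb1 (-0.17 ± 0.04, adjusted p = 0.00186), Nuf2 (-0.17 ± 0.05) and Ube2c (-0.16 ± 0.05) fell and none rose, where 10.4% of all tested genes fell and 8.42% rose. No member was higher there at an unadjusted p under 0.05 or in DESeq2. The Nuf2 and Ube2c calls ended without at least 1 library, and without knockout replicate 3 without ATRA 1 member fell.

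The ATRA effect in control cells was higher in MN1 than in H9M for 3 members, Aurkb (0.20 ± 0.06, adjusted p = 0.0168), Kif11 (0.20 ± 0.06, adjusted p = 0.0321) and Smc4 (0.27 ± 0.09, adjusted p = 0.041). Of all tested genes 6.64% were called higher and 7.15% lower, against 7.69% and 0% of the members. Each of the 3 calls ended without at least 1 library, and none was left without MN1 control replicate 1 with ATRA. No member was lower, at an unadjusted p under 0.05 or in DESeq2.

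No member passed the test for an interaction of knockout and ATRA. It was called for 0 of 39 members in each model, where 2.25% of all tested genes were called higher and 2.79% lower in H9M, and 1.09% and 1.68% in MN1. At an unadjusted p under 0.05 there were 2 higher members in H9M and 1 lower in MN1, and DESeq2 called 0 in each. The smallest adjusted p was 0.0821 (Nuf2, H9M). The interaction ran from -0.13 to 0.20 in H9M and from -0.20 to 0.13 in MN1 on the log2 scale. Against the control without ATRA, 28 members were lower and 2 higher in the H9M knockout with ATRA, where 27.9% of all tested genes were lower and 28.4% higher. The risen members were Cdc25b (0.23 ± 0.06) and Foxm1 (0.20 ± 0.05). In the same comparison in MN1, 35 members were lower and 1 higher, Nusap1 (0.16 ± 0.05), where 29.8% of all tested genes were lower and 30.8% higher.

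Other genes of the cell cycle were examined from lists that leave out the 39. Over all tested genes, 25.4% were lower and 26.1% higher in the H9M knockout, and 26.3% and 28.7% in the MN1 knockout. Of 58 other mitosis genes, 35 fell and 3 rose in the H9M knockout (median -0.17) and 47 fell and 2 rose in the MN1 knockout (median -0.34). Cdca8, the borealin subunit of the passenger complex, fell in H9M (-0.45 ± 0.04, adjusted p = 4.49e-11), as did Pmf1, a kinetochore gene (-0.45 ± 0.05). Pkmyt1, a kinase that inhibits CDK1, fell most in MN1 (-0.92 ± 0.09, adjusted p = 1.77e-10), followed by Nsl1, another kinetochore gene (-0.69 ± 0.06). Gtse1, a microtubule protein of G2 and S phase, rose in MN1 (0.42 ± 0.04, adjusted p = 2.91e-10). Ncaph, a condensin subunit, rose in H9M (0.17 ± 0.04), and Ect2, a cytokinesis factor, rose in MN1 (0.19 ± 0.05) and in H9M (0.12 ± 0.05, adjusted p = 0.0401), where the call ended under 3 settings and without any of 3 libraries. Of 30 genes of G1/S and replication, 18 fell and 3 rose in H9M and 25 fell and 3 rose in MN1 (medians -0.19 and -0.46). Chaf1a, a histone chaperone of replication (-0.39 ± 0.04), and Mcm10, a replication factor (-0.38 ± 0.04), fell most in H9M. Gins2, a subunit of the replicative helicase (-0.72 ± 0.05), and Ccne2, cyclin E2 (-0.62 ± 0.11), fell most in MN1. E2f2, an E2F transcription factor gene, rose in both (1.47 ± 0.05 and 0.63 ± 0.06). The D-type cyclin gene Ccnd3 rose in H9M (0.49 ± 0.04) and Ccnd2 rose in MN1 (0.17 ± 0.04).

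Of 13 CDK inhibitors and G2 arrest genes, 7 rose and 1 fell in the H9M knockout and 6 rose and 2 fell in the MN1 knockout. Their medians were 0.28 and 0.13. Of all tested genes, 26.1% rose and 25.4% fell in H9M, and 28.7% rose and 26.3% fell in MN1. Cdkn2c, the inhibitor p18, rose most in both (3.21 ± 0.21 and 1.55 ± 0.16). Cdkn1a, the inhibitor p21, rose in both as well (2.40 ± 0.05, adjusted p = 4.57e-26, and 1.28 ± 0.04, adjusted p = 2.84e-21), and Ccng1, a p53 target linked to G2 arrest, rose in MN1 (1.28 ± 0.04). Cdkn1c fell in H9M (-1.20 ± 0.51, adjusted p = 0.037), a call that ended under the replicate block and without any of 3 libraries. Cdkn2b (-0.45 ± 0.14) and Cdkn2d (-0.19 ± 0.06) fell in MN1, the latter call ending without control replicate 1 or knockout replicate 1. Of 15 MuvB, MYB and NF-Y regulators, 7 fell and 3 rose in H9M and 8 fell and 2 rose in MN1. The medians of that list were -0.06 and -0.17. Mybl2, the MYB factor that works with MuvB on CHR promoters, fell in both (-0.79 ± 0.04, adjusted p = 6.15e-17, and -0.69 ± 0.04, adjusted p = 3.19e-15). Tfdp2, a partner of E2F factors, fell in H9M (-0.43 ± 0.04), and Nfyb, a subunit of NF-Y, fell in MN1 (-0.46 ± 0.06). Rbl1, a pocket protein, rose in H9M (0.23 ± 0.05), and so did E2f5 (0.38 ± 0.14, adjusted p = 0.022). In MN1 Nfya (0.14 ± 0.04) and Rbl2 (0.13 ± 0.05) rose. The calls of E2f5, Nfya and Rbl2 ended without at least 1 library.

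Markers of mature myeloid cells rose beside these falls, and the summed level of progenitor markers rose too. Over all tested genes, 26.1% rose and 25.4% fell in the H9M knockout without ATRA, and 28.7% rose and 26.3% fell in that of MN1. Of 8 tested markers of mature neutrophils, 7 rose in each knockout without ATRA, and their summed level went from 24.8 to 26.9 CPM in the H9M control libraries to 1514 to 1805 CPM in the knockout. In MN1 it went from 14.8 to 16.4 CPM to 439.8 to 478.8 CPM. Nearly all of the sum in the knockout was Mmp8, a neutrophil collagenase, at 1420, 1700 and 1520 CPM in H9M and 418, 458 and 437 CPM in MN1. The granule markers Ltf, Camp and Ngp were below 1 CPM in every library, so the 7 risen markers include at least 1 at that low level. Of 8 tested markers of monocytes and macrophages, 8 rose in H9M and 7 rose and 1 fell in MN1, and their summed level went from 198.4 to 212 CPM to 1308 to 1338 CPM in H9M. In MN1 it went from 272.4 to 284.9 CPM to 480.6 to 500.6 CPM. All 5 mast cell and basophil markers rose in the MN1 knockout, from a summed 982.9 to 1053 CPM to 1853 to 1894 CPM. Nearly all of that sum was Cpa3, a mast cell protease, at 1830, 1800 and 1840 CPM in the knockout. Of 9 markers of myeloid progenitors, 4 rose and 3 fell in H9M, and 7 rose and 1 fell in MN1. The median log2 fold change of these 9 markers was -0.08 in H9M, where the sum rose, and 0.45 in MN1. Their summed level went from 13450 to 13870 CPM to 16380 to 16550 CPM in H9M. In MN1 it went from 4529 to 4672 CPM to 6894 to 6991 CPM. The part of all these markers in the falls of the mitosis genes was not tested.

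Replicates agreed well for most of the 39 genes. The coefficient of variation within a group had a median over groups between 1.6% and 10.4%, and its highest value was 23% for Mki67, 22.4% for Ncapg, 18.5% for Cenpf and 18% for Cenpe. Replicate 2 was the highest library in the summed level of both H9M knockout groups, at 5158 CPM against 4786 and 4743 CPM without ATRA and at 4960 CPM against 4544 and 4451 CPM with ATRA. Without that library 27 members fell in the H9M knockout and none rose, and with ATRA 23 fell and none rose. The RefSeq annotation has 9 members that overlap another protein-coding gene: Ccna2, Foxm1, Aurka, Cdc20, Nusap1, Kif20a, Prc1, Anln and Ncapg. Their counts may hold reads of the neighbour.

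H3K4me2 was read at the starts of the 31 members with a RefSeq entry. For a gene with several starts, the start with the most reads in both libraries together was taken. Within 1000 bases either side of the start, they had a median of 26.8 RPM (reads scaled to the kept reads of the library) in GFI1-WT and 25.5 in GFI-KD. Their median ratio of GFI-KD to GFI1-WT was 0.973, where that of 15183 genes with at least 20 reads was 0.988. The ratio was above 1 for 13 of the 31. Within 500 bases it was 0.886 for the members and 0.978 for all genes with enough reads, and above 1 for 9 of the 31. At Cdk1 the libraries had 164 and 152 reads (ratio 0.87, 95% counting interval 0.693 to 1.09) and at Nusap1 233 and 247 reads (0.995, 0.828 to 1.19). The interval left out 1 for Cenpa (0.819), Kif4 (0.779), Ncapg (0.81), Mki67 (0.823) and Kif2c, which had 15 and 2 reads. Such intervals, and the share of ratios above 1, were not computed over all genes. Within 1000 bases, the quartiles of the ratio over the 15183 genes were 0.871 and 1.2. With 1 library in each group there is no replicate check, and these intervals cover counting error only. This assay was done in other cells than the RNA libraries.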

How the data were processed

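RNA was measured in 24 libraries of 8 groups, and H3K4me2 in 2 ChIP libraries. Per the labels' protocols, stranded total RNA libraries were sequenced as paired reads. The submitters' processing notes name STAR 2.5.3 and mm10 for RNA. For ChIP they name CASAVA 1.8.2, BWA, bedtools 2.27.0 and mm10. The authors deposited a table of whole-number counts per gene and library. Neither the labels nor these notes name the counter, its annotation or its strand setting. The deposited ChIP files list an aligned read per line with a score, its mapping quality, which served as a filter (at least 10).

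Symbols were attached by Ensembl identifier (48349 of 48795 matched). Counts of all 14663 genes kept by filterByExpr were fitted in edgeR 4.0.16 (R 4.3.3) with TMM factors in a quasi-likelihood model of the 8 groups without covariates (16 residual degrees of freedom). The common biological coefficient of variation was 4.01%. Each of 14 contrasts was tested two-sided with Benjamini-Hochberg adjustment over all tested genes and called at an adjusted p under 0.05. Fold changes and percents of control come from this fit with their SE, and CPM are counts over the library total. The test code was tested on simulated data. Alternatives were RLE factors, library totals only, DESeq2 1.42.0, no filter, a replicate block, each model alone, and each library left out.

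The members and the lists (other mitosis genes, G1/S and replication, CDK inhibitors and G2 arrest, MuvB, MYB and NF-Y regulators, and cell type markers) were chosen with earlier results of these data known. The rule for genes named with values was a panel (Foxm1, Ccnb1, Cdk1, Plk1, Aurkb, Top2a, Mki67), the 5 largest rises and falls called, and the smallest adjusted p in each role, and in each list the 2 largest rises and falls. Other members are given so that each is accounted for. Of the marker lists not given above, in the H9M and MN1 knockouts without ATRA the erythroid list had 1 of 4 higher in each. The megakaryocyte list had 1 and 3 of 4 higher and 0 and 1 lower. The stromal list had 2 of 4 higher in each and 2 and 1 lower. The 2 tested B cell markers were not called, and 1 of 5 mast cell and basophil markers fell in H9M. Of all tested genes, 26.1% were higher and 25.4% lower in the H9M knockout, and 28.7% and 26.3% in the MN1 knockout. No block was used in the main fit, since nothing in the labels says that replicate numbers mark a shared culture. Replicate numbers were also checked for pairing over all tested genes. Same-numbered libraries did not deviate together there (correlation of deviations -0.075 to 0.077). The members alone were not checked, and replicate 2 had the highest summed level of them in both H9M knockout groups. Promoter windows and starts are from RefSeq (GRCm38.p6). H3K4me2 reads were counted around each start, scaled to 8949072 (GFI1-WT) and 9538627 (GFI-KD) kept reads.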

Additional observations from a re-analysis of the deposited data

Results flagged for a closer look

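The following genes had a knockout effect without ATRA that differed between the models by the test of the difference itself (MN1 minus H9M, on the log2 scale, edgeR's quasi-likelihood test, 3 libraries in each group). In the cytokinesis group the differences were -0.42 for Kif23, -0.41 for Anln, -0.35 for Kif20a and -0.26 for Prc1. In the CDK1 engine they were -0.40 for Ccna2, -0.27 for Ccnb1 and -0.15 for Cdk1, and Foxm1 differed by -0.37. Among mitotic kinases and passenger complex genes they were -0.27 for Plk1, -0.22 for Aurka, -0.18 for Tpx2, -0.32 for Aurkb, -0.29 for Birc5 and -0.23 for Incenp. Among checkpoint and APC/C genes they were -0.37 for Bub1b, -0.35 for Mad2l1, -0.25 for Ttk and -0.17 for Cdc20. The remaining values were -0.15 for Cenpa, -0.23 for Kif4, -0.23 for Top2a, -0.19 for Smc2 and -0.23 for Ncapd2. Of all tested genes 14.2% were called lower in this difference, against 59% of the members. The calls of Cdc20, Cdk1, Cenpa, Kif4, Smc2 and Tpx2 ended without at least 1 library. For Cdc20, Cenpa and Kif4 this held for 8 different libraries each. The effect of ATRA in control cells differed between the models for Aurkb (0.20), Kif11 (0.20) and Smc4 (0.27). These are 7.69% of the members, near the 6.64% of all tested genes called higher there. The Aurkb call ended without either of 2 libraries, the Kif11 call without any of 6 and the Smc4 call without any of 7. The Kif11 and Smc4 calls also ended with RLE normalization.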

How the results depend on the processing

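The counts of members lower in the knockout kept within 1.5 times of the reported count in both models, with and without ATRA, under RLE factors, library totals, DESeq2, no filter, the replicate block and each model alone. Leaving out each library in turn gave 20 to 27 in H9M and 34 to 37 in MN1 without ATRA, 14 to 23 and 36 with ATRA, and 18 to 25 for the difference between the models. Members higher ranged from 0 to 1 in the H9M knockout. The smaller counts moved more, and the cause was not tested. With ATRA, members higher in the H9M knockout were 2 with RLE factors, 2 in DESeq2 and 3 with no filter, and 0 to 3 with a library left out. For ATRA in H9M control cells, members higher were 0 with library totals, 2 with no filter and 0 to 1 with a library left out. For ATRA in H9M knockout cells, members lower were 15 with library totals and 4 to 15 with a library left out, and members higher 0 to 2. For ATRA in MN1 control cells, members lower were 2 with library totals and 1 to 4 with a library left out. Members higher there were 3 with library totals, 0 in DESeq2, 2 with no filter, 3 with MN1 alone and 0 to 2 with a library left out. For ATRA in MN1 knockout cells, members lower were 1 with library totals, 5 with MN1 alone and 1 to 4 with a library left out, and 1 was higher with no filter. For the difference of ATRA effects, members higher were 1 with RLE factors, 9 with library totals, 6 with no filter and 0 to 4 with a library left out. The H9M interaction had 0 to 1 members higher with a library left out. The share of promoters with a CHR match was 25.8% in the 100 bases before the start.

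Some uncalled values near 0 changed sign. In the H9M knockout, Foxm1 was 0.00 and Kif23 -0.01 with library totals, Kif23 was 0.00 with no filter, and Prc1 was 0.01 with RLE factors and 0.01 in DESeq2. With a library left out, Cdc25b ran from -0.01 to 0.08, Foxm1 from -0.01 to 0.04, Cenpf from -0.19 to 0.04, Kif23 from -0.03 to 0.02, Prc1 from -0.04 to 0.03, Anln from -0.10 to 0.01 and Mki67 from -0.12 to 0.12. With ATRA, Top2a ran from -0.04 to 0.06 and Mki67 from -0.31 to 0.02. Of 1737 values of named genes under other settings, 1676 kept direction and call, 51 lost the call, 5 gained it and 5 changed sign. Of 1926 with a library left out, 1758 kept both, 145 lost the call, 7 gained it and 16 changed sign.

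With the replicate number as a block, 25 members were lower in the H9M knockout, 36 in the MN1 knockout and 25 in the difference, and 2 rose with ATRA in MN1 control cells. Over all tested genes, same-numbered libraries did not deviate together (correlations of deviations from -0.075 to 0.077). The members alone were not checked for pairing.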
